A study of Mus musculus with 8 samples.

Results

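The initiation factors outside EIF4F are the proteins that load the small ribosomal subunit with initiator tRNA, bring it to the mRNA, recognise the start codon and join the large subunit, and that do not belong to the cap-binding complex of which the helicase EIF4A1 is a part. Members were taken by symbol from the count and TPM tables (TPM is a transcript abundance scaled for transcript length and library size). All rows named Eif1, Eif2, Eif3, Eif5 or Eif6 with any suffix were kept, except the Eif2ak kinases, names with -ps and the Y-linked Eif2s3y. The rule gave 52 of 53242 genes. Of these, 34 had enough reads for the test, in which 14218 genes were compared.

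RNA came from splenic B cells of C57BL/6 mice aged 8 to 12 weeks, which were activated with 40 ng/ml IL4 during 24 h of culture over irradiated CD40LB cells, feeder fibroblasts that supply CD40 ligand and BAFF. The control mice were Eif4a1 +/+ Cd23-cre and the 4A1 KO mice Eif4a1 fl/fl Cd23-cre, so both genotypes carried the Cre, whose promoter is active from splenic immature B cells onwards, and only the knockout carried loxP sites, around exons 2 to 4 of Eif4a1. Each genotype had 4 libraries, each from 1 mouse: replicates 1 and 2 were a male and a female of batch A, replicates 3 and 4 a male and a female of batch B. The study left out replicate 1 of both genotypes for reduced viability, and the tests below use replicates 2 to 4 (n = 3 per genotype) with batch and sex in the fit unless 8 libraries are named.

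In scanning initiation, EIF2 with GTP carries initiator methionyl-tRNA to the small subunit, together with EIF1, EIF1A, EIF5 and the multisubunit EIF3. EIF1 keeps the complex open for scanning and holds back recognition of poor start codons, while EIF5 stimulates GTP hydrolysis on EIF2 when a start codon is found. EIF2B then recharges EIF2 with GTP, and it is inhibited when EIF2 is phosphorylated on its alpha subunit, the basis of the integrated stress response. EIF5B joins the large subunit, and EIF6 keeps free large subunits from joining too early. B cells leaving quiescence raise their protein synthesis.

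Libraries held between 31727557 and 43210858 counted reads. Reads of Eif4a1, counted over all its exons and so also over those outside the floxed part, fell by 26.5% (log2 fold change -0.44 ± 0.05 (SE), adjusted p = 0.000115). The summed level of 5 B cell markers was 3273 to 3429 CPM (counted reads of a gene per 1000000 counted reads of the library) in control and 2671 to 2934 CPM in 4A1 KO libraries, with no overlap over 8 libraries. That of 8 fibroblast markers was 9.33 to 42.8 and 14.2 to 26.9 CPM, with Lum and Postn at 0, that of 4 myeloid markers was 4.12 to 8.17 and 7.28 to 8.94 CPM, and that of 5 T cell markers did not exceed 0.1 CPM. The part of these differences in the results was not tested. In bulk RNA, fewer cells of a type and less RNA per cell cannot be told apart.

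Start sequences are shown for all members that rose or fell in the genotype test and have one in the table, because the start of an mRNA is where the initiation machinery loads, and mRNAs of the translation machinery often begin with C and a run of pyrimidines (the TOP motif). Of the 52 members, 27 matched the RefSeq table of start sequences (GRCm38.p6). Eif1a, Eif2b3, Eif3e, Eif3h, Eif3i, Eif3j2 and Eif6, of the tested members, were not among them. Each window below runs 5′ to 3′ over 40 bases, 20 before the annotated start and 20 from it, with capitals for each pyrimidine run of at least 6 bases that begins with C within 15 bases of the start. Positions are GRCm38.p6.
Eif5 (chr12:111538081-111538120, + strand): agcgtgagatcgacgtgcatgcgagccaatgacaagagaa
Eif1 (chr11:100319929-100319968, + strand): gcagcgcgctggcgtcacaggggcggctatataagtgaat
Eif1b (chr9:120492586-120492625, + strand): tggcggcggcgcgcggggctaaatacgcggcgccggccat
Eif3g (chr9:20898571-20898610, - strand): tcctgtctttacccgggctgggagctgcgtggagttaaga
Eif2s2 (chr2:154892887-154892926, - strand): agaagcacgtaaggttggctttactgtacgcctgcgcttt
Eif3j1 (chr2:122028560-122028599, + strand): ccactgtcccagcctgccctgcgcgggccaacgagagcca
Eif3a (chr19:60790674-60790713, - strand): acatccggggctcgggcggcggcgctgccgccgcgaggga
Eif2b1 (chr5:124579112-124579151, - strand): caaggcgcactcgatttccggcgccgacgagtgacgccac
Eif2d (chr1:131153187-131153226, + strand): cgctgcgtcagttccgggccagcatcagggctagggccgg
Eif3l (chr15:79075203-79075242, + strand): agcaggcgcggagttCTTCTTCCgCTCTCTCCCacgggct
Eif2a (chr3:58525801-58525840, + strand): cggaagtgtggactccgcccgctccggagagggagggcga
Eif2b2 (chr12:85219461-85219500, + strand): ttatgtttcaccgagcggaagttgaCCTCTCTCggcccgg
Eif2b4 (chr5:31193120-31193159, - strand): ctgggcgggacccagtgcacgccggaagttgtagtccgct
Eif3m (chr2:105017008-105017047, - strand): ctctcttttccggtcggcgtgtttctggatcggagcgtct
Eif3k (chr7:28981869-28981908, - strand): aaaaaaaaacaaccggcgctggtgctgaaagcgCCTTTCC
Eif3f (chr7:108934395-108934434, + strand): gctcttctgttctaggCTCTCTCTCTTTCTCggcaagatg

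The first 7 lines are members that rose and the other 9 members that fell, each in the order of the size of the change. Such a run was found in 6 of the 27 members, counted where any start of the gene held it, and by the same count in 28.2% of the 27025 genes in the table (25.1% of its 32851 start sequences). By outcome of the genotype test given below, it was in 4 of the 9 members with a sequence that fell (Eif2b2, Eif3f, Eif3k and Eif3l), in 0 of the 7 that rose, and in 2 of the 11 that did not pass (Eif2b5 and Eif2s3x). A run counted here may begin before or after the annotated start, so it is wider than the TOP motif. Of the 6, Eif3f, Eif2b5 and Eif2s3x have a C of the run at the annotated start, and Eif2b2, Eif3k and Eif3l do not. The E-box CACGTG, which reads the same on both strands, lay between 250 bases before and 50 after a start in 6 of the 27 members (Eif1b, Eif3a, Eif3f, Eif3k, Eif5a and Eif5a2) and, again counted by gene, in 8.09% of genes (7.15% of start sequences). Eif5a has 6 listed starts, and only some of them hold it. These are matches of letters, described without a test.

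In 4A1 KO B cells, mRNA levels of the initiation factors moved in both directions. Of the 34 members tested, 10 fell, 9 rose and 15 did not pass (edgeR, adjusted p under 0.05). Over all genes tested 26.7% fell and 26.3% rose, so the members' shares of 29.4% and 26.5% were near the background. Changes were small: only Eif1 and Eif5 passed with a log2 fold change above 0.5, against 11.6% of all genes, and 0 members passed with one below -0.5, against 13.7% of all genes (edgeR). Without replicate 4, Eif2b1 and Eif2d passed below -0.5. The median log2 fold change of the members was -0.02 and that of all genes 0.01. Over the 8 libraries, 9 members lay lower in all 4 4A1 KO libraries than in any control library, where 19.9% of all genes did, and 7 lay higher in all of them, where 17% did.

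**Figure D1:**
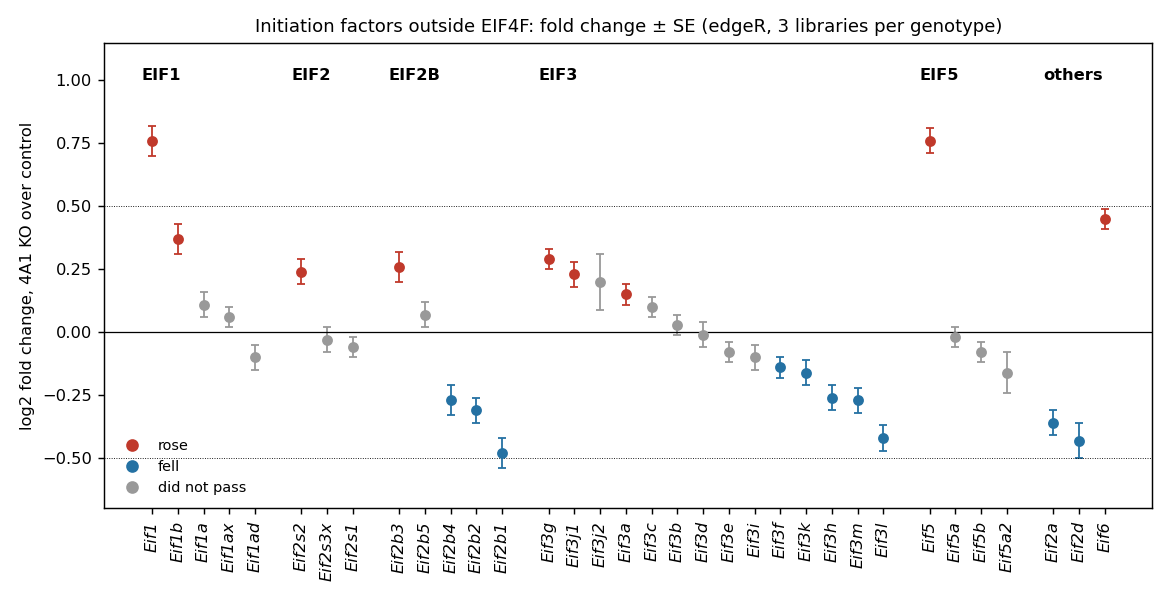
Log2 fold change (4A1 KO over control) of the 34 tested members, with the SE of the fit, grouped by complex and ordered by value within it. Red members rose, blue members fell and grey members did not pass; dotted lines mark 0.5 and -0.5. Eif1 and Eif5 stand at 0.76, and Eif2b1 is lowest at -0.48.

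Among the factors of start codon selection, Eif1 and Eif5 rose most and by like amounts. Eif1 (chromosome 11, 100210670 to 100212922, GRCm39, + strand) was at 427, 349, 305 and 324 CPM in control replicates 1 to 4 and at 729, 577, 582 and 493 CPM in 4A1 KO replicates 1 to 4. All 4 4A1 KO libraries lay above all controls, and in both genotypes replicate 1 was highest. The rise was 1.69-fold (log2 fold change 0.76 ± 0.06 (SE), adjusted p = 2.8e-05), and it was present in each same-numbered pair, with log2 ratios from 0.61 to 0.93. Eif5 (chromosome 12, 111502067 to 111514340, + strand), the GTPase-activating protein of EIF2, was at 644, 607, 617 and 632 CPM in control and at 1031, 1011, 1142 and 996 CPM in 4A1 KO libraries. The groups were far apart relative to their own spread, and the rise was 1.7-fold (0.76 ± 0.05 (SE), adjusted p = 1.65e-05). In TPM, Eif1 went from 533 ± 25.9 (SD) to 888 ± 72 and from the sixth to the second highest member, and Eif5 from 359 ± 5.19 to 587 ± 65.2.

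Eif1b, the close paralog of Eif1, was less abundant, at 36.5, 35.6, 40.8 and 36.4 CPM in control and at 54.1, 47, 52.4 and 46 CPM in 4A1 KO libraries, again without overlap. It rose 1.29-fold (0.37 ± 0.06 (SE), adjusted p = 0.000787). Per length, Eif1b TPM was 9.59%, 11.7%, 14.8% and 12.5% of Eif1 TPM in control replicates 1 to 4 and 8.45%, 9.31%, 10.1% and 10.6% in 4A1 KO. The mean log2 ratio of Eif1b to Eif1 was lower in 4A1 KO by 0.33 (difference -0.33), a difference that did not pass (exact two-sided permutation test over 8 libraries, p = 0.0857, adjusted p = 0.286 over 4 paralog ratios; the smallest p possible is 0.0286). It was lower in 4A1 KO in all 4 same-numbered pairs, for which an exact test by sign flips gives its smallest possible p of 0.125. The pseudogenes Eif1-ps1 and Eif1-ps2, 95.8% and 97.3% identical to Eif1 over their aligned length, also rose, by 0.58 and 0.77 on the log2 scale (adjusted p = 0.0473 and 0.00982), at 2.17 CPM or less in each library, and reads of Eif1 and of these copies may not be separable.

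EIF1A places the initiator tRNA and is encoded by Eif1a on chromosome 18 and Eif1ax on the X chromosome. Neither passed: Eif1a had a log2 fold change of 0.11 ± 0.05 (SE) and Eif1ax of 0.06 ± 0.04 (adjusted p = 0.119 and 0.261). Eif1ax TPM was between 45.7% and 59.9% of Eif1a TPM in the 8 libraries, and the ratio differed between genotypes by -0.03 on the log2 scale (exact p = 0.771). Eif1ad, which carries an EIF1A-like domain, did not pass (-0.10 ± 0.05 (SE), adjusted p = 0.101), though it did when all 8 libraries were fitted (-0.11, adjusted p = 0.0359). Its 17 relatives with numbered names (Eif1ad2 and onwards) were effectively silent: 2 of them had a read, and no library held more than 1 read of any. The remaining untested row, Eif2c5, is an Argonaute-type symbol annotated as a long noncoding RNA. It has the name but not the function of an initiation factor, and it was at 0.

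The subunits of EIF2 differed. Eif2s2, the beta subunit, with which EIF5 makes contact, was at 352, 320.5, 342 and 345 CPM in control and at 424, 406, 409.9 and 372 CPM in 4A1 KO libraries. It rose 1.18-fold without overlap (log2 fold change 0.24 ± 0.05 (SE), adjusted p = 0.00423). Eif2s1, the alpha subunit that stress kinases phosphorylate, and Eif2s3x, the GTP- and tRNA-binding gamma subunit, did not pass (-0.06 ± 0.04 and -0.03 ± 0.05 (SE), adjusted p = 0.317 and 0.66).

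Eif2a and Eif2d, which act beside EIF2, both fell. Eif2a, a separate gene from the alpha subunit, encodes a protein that can bring initiator tRNA to the ribosome without EIF2, and Eif2d encodes a related factor that also recycles ribosomes after termination. Eif2a was at 148, 158, 160.2 and 157 CPM in control and at 115, 119, 122 and 127 CPM in 4A1 KO libraries, and it fell by 22.2% (-0.36 ± 0.05 (SE), adjusted p = 0.000323). Eif2d (chromosome 1, 131080893 to 131115395, + strand) was at 48.8, 55.4, 52.8 and 53.4 CPM in control and at 38.9, 41.1, 35.2 and 43.6 CPM in 4A1 KO libraries, and it fell by 25.8% (-0.43 ± 0.07 (SE), adjusted p = 0.000855). Neither gene had overlapping groups. Mcts1 and Denr, which form a dimer with the functions of EIF2D, were on the list of partners: Mcts1 fell (-0.27 ± 0.06 (SE), adjusted p = 0.00719, and adjusted p = 0.0631 without replicate 3), while Denr had 0.04 ± 0.05 (adjusted p = 0.46).

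Of the 5 subunits of EIF2B, the exchange factor of EIF2, 3 fell, 1 rose and 1 did not pass, where 26.7% of all genes fell and 26.3% rose. Eif2b1 (chromosome 5, 124705658 to 124717194, - strand) encodes the alpha subunit, by which EIF2B assembles into its dimer and senses phosphorylated EIF2. It was at 91.4, 94, 104 and 102 CPM in control and at 66.6, 66, 67.8 and 80.5 CPM in 4A1 KO libraries, with 4A1 KO replicate 4 the nearest to control. It fell by 28.4%, the lowest fold change of any member (log2 fold change -0.48 ± 0.06 (SE), adjusted p = 0.000271). The other regulatory subunits, Eif2b2 (beta) and Eif2b4 (delta), fell by 19.2% and dropped by 17.1% (-0.31 ± 0.05 and -0.27 ± 0.06 (SE), adjusted p = 0.00146 and 0.00356), both without overlap.

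The catalytic subunits were not among those that fell. Eif2b3, the gamma subunit, was at 48.9, 45.8, 55.5 and 52.2 CPM in control and at 59.7, 56.8, 64.4 and 61.7 CPM in 4A1 KO libraries. It rose 1.2-fold (0.26 ± 0.06 (SE), adjusted p = 0.00401), and without the replicate block its adjusted p was 0.0626. Eif2b5, the epsilon subunit that holds the exchange activity, had 0.07 ± 0.05 (SE) and did not pass (adjusted p = 0.216). The order of the TPM levels in control was Eif2b5 (142 ± 4.68 (SD)), Eif2b2 (111 ± 5.81), Eif2b1 (94.5 ± 5.98), Eif2b4 (82.7 ± 3.65) and Eif2b3 (53.1 ± 6.23). In 4A1 KO, Eif2b1 (67.4 ± 8.42), Eif2b4 (66.5 ± 4.41) and Eif2b3 (62.6 ± 5.36) lay within each other's spread. The summed TPM of the 5 genes was 483 ± 17.9 (SD) in control and 435 ± 15.1 in 4A1 KO.

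**Figure D2:**
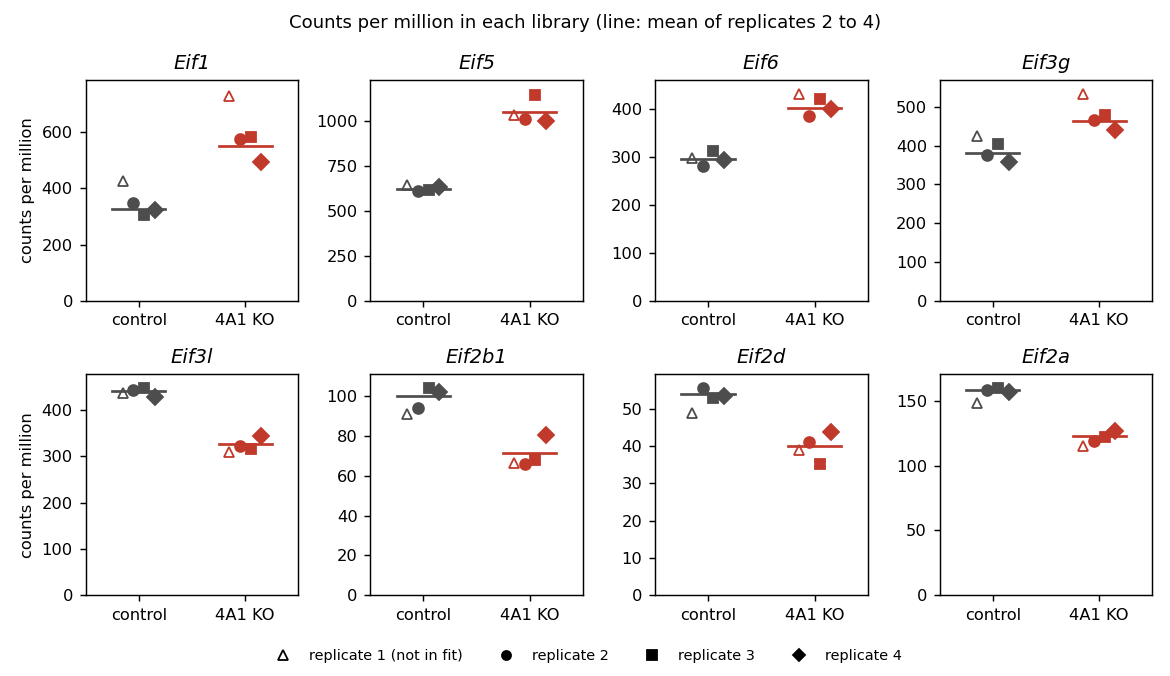
CPM of 8 members in each library, control in grey and 4A1 KO in red, from replicate 1 (open triangle, not in the fit) to replicate 4, with a line at the mean of replicates 2 to 4; each axis starts at 0. Eif1, Eif5, Eif6 and Eif3g lay higher, and Eif3l, Eif2b1, Eif2d and Eif2a lower, in all 4 4A1 KO libraries than in all 4 controls.

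EIF3, the scaffold that joins the small subunit to the mRNA and its bound factors, had 14 tested members, of which 5 fell, 3 rose and 6 did not pass. The share that passed in either direction was 57.1%, near the 53% of all genes tested. The median log2 fold change of its members was -0.04. Of the 8 subunits of the core built of PCI and MPN domains (a, c, e, f, h, k, l and m), 5 fell (Eif3f, Eif3h, Eif3k, Eif3l and Eif3m) and 1 rose (Eif3a), where 26.7% and 26.3% of all genes did. The core was not tested against the other subunits. The smaller changes depended on the libraries used: without replicate 2, 3 of 14 fell and 1 rose, and without replicate 3, 3 fell. Eif3h, Eif3l, Eif3m and Eif3g passed in all 12 other settings tried.

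Eif3l (chromosome 15, 78959372 to 78978606, + strand), a peripheral core subunit paired with EIF3K, changed most within EIF3. It was at 436, 444, 448 and 429 CPM in control and at 309, 322, 316 and 345 CPM in 4A1 KO libraries, far outside the control spread. It fell by 25.4% (log2 fold change -0.42 ± 0.05 (SE), adjusted p = 0.000166). Eif3m was at 204, 199, 202 and 198 CPM and at 176, 165, 164 and 167 CPM, and it fell by 16.9% (-0.27 ± 0.05 (SE), adjusted p = 0.00117). Eif3h, the partner of the MPN subunit EIF3F, was at 375, 368, 367 and 343 CPM and at 320.2, 315, 283 and 301 CPM, and it fell by 16.3% (-0.26 ± 0.05 (SE), adjusted p = 0.00255). In none of these 3 genes did the genotypes overlap. Eif3k fell by 10.6% and Eif3f fell by 9.18% (-0.16 ± 0.05 and -0.14 ± 0.04 (SE), adjusted p = 0.0184 and 0.0256), both with overlapping libraries, and neither passed without replicate 2 (adjusted p = 0.1 and 0.0754) or without replicate 3 (0.101 and 0.0722). Eif3f also did not pass without replicate 4 (adjusted p = 0.101).

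Eif3g and Eif3a rose. Eif3g, an RNA-binding subunit, was at 424, 377, 404 and 358 CPM in control and at 534, 467, 479.9 and 441 CPM in 4A1 KO libraries, and it rose 1.22-fold without overlap (0.29 ± 0.04 (SE), adjusted p = 0.00054). Eif3a, the largest subunit, rose 1.11-fold (0.15 ± 0.04 (SE), adjusted p = 0.0144), with overlap, and did not pass without replicate 2 or replicate 3 (adjusted p = 0.0696 and 0.071). Eif3b, Eif3c, Eif3d, Eif3e and Eif3i did not pass, with log2 fold changes from -0.10 to 0.10. Eif3c passed with upper-quartile scaling (0.12, adjusted p = 0.0311). Eif3i lay lower in all 4 4A1 KO than in all 4 control libraries and passed when all 8 were fitted (-0.13, adjusted p = 0.0416).

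Eif3j1, which encodes the loosely bound j subunit, rose 1.18-fold (0.23 ± 0.05 (SE), adjusted p = 0.00534, and 0.0526 without replicate 2). Its copy Eif3j2 had 0.20 ± 0.11 and did not pass (adjusted p = 0.154). The transcripts of both genes are 99.4% identical over 2379 aligned bases, with a stretch of 1107 identical bases, so the division of reads between them is uncertain. Eif3j2 TPM was between 54.2% and 59.5% of Eif3j1 TPM in all 8 libraries, and this ratio differed by -0.01 on the log2 scale between genotypes (exact p = 0.857). The deposited counts divided the reads otherwise: Eif3j2 had 190 to 374 reads, 3.93% to 5.43% of those of Eif3j1, so its level relative to Eif3j1 is not settled by these tables.

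The pseudogenes of Eif3e (Eif3s6-ps1, Eif3s6-ps2 and Eif3s6-ps3) did not pass and had at most 4.32 CPM in a library.

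**Figure D3:**
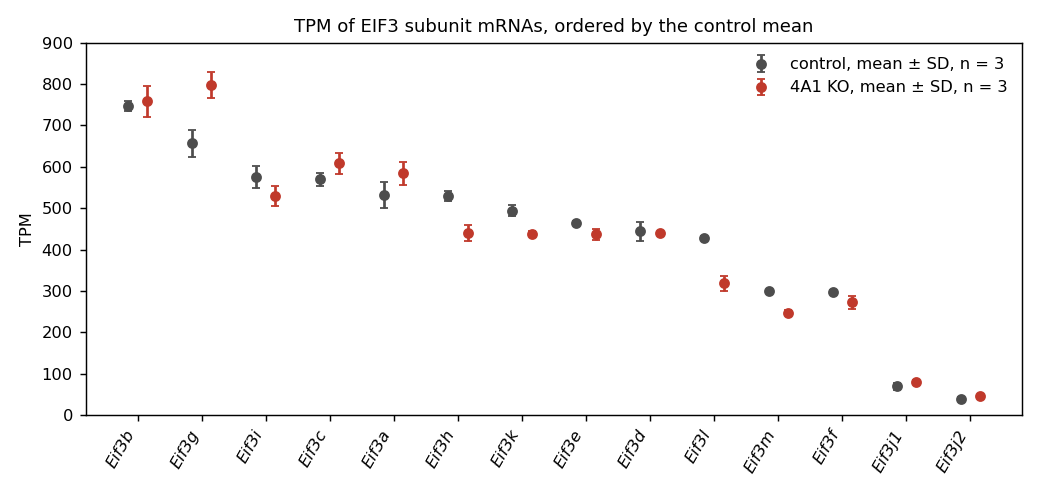
TPM (mean ± SD, n = 3) of the 14 EIF3 members in control and 4A1 KO B cells, ordered by the control mean, on an axis from 0. Eif3g rose from 657 to 798 TPM and Eif3l fell from 429 to 318 TPM, while Eif3j1 and Eif3j2 stayed under 100 TPM.

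Per length, the 12 EIF3 members other than Eif3j1 and Eif3j2 lay closer together in control than in 4A1 KO cells. The highest of them was 2.5, 2.49, 2.49 and 2.59 times the lowest in control replicates 1 to 4, and 3.52, 3.29, 3.39 and 3.04 times the lowest in 4A1 KO. The SD of their log2 TPM was 0.393, 0.393, 0.408 and 0.404 in control and 0.54, 0.526, 0.555 and 0.533 in 4A1 KO libraries, so that each 4A1 KO library was more uneven than each control library. The summed TPM of all 14 was 6146 ± 132 (SD) in control and 5995 ± 79 in 4A1 KO, a difference of -2.45%. The sum moved little while its parts moved apart, and these values are given without a test.

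Of the other EIF5 members, Eif5b, the GTPase of subunit joining, had -0.08 ± 0.04 (SE) and did not pass (adjusted p = 0.152). Eif5a, whose hypusine-modified product acts mainly in elongation and termination, was the most abundant member, at 2848 ± 85.9 (SD) TPM in control and 2800 ± 88.4 in 4A1 KO, or 23.5% and 22.2% of the TPM of all tested members. It had a log2 fold change of -0.02 ± 0.04 (SE, adjusted p = 0.724). Its paralog Eif5a2 was at 7.56 ± 0.144 and 6.7 ± 0.166 TPM and did not pass in counts (-0.16 ± 0.08 (SE), adjusted p = 0.11). The ratio of Eif5a2 to Eif5a differed by -0.13 on the log2 scale (exact p = 0.143, adjusted p = 0.286), and it too was lower in 4A1 KO in all 4 same-numbered pairs (exact paired p = 0.125, the smallest possible). Of the enzymes that make hypusine, Dohh rose (0.24 ± 0.05 (SE), adjusted p = 0.0053) and Dhps had -0.14 ± 0.06 (adjusted p = 0.0697).

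Eif5a lies on chromosome 11 (69807422 to 69827276, GRCm39, - strand), 0.244 Mb from Eif4a1. Its processed pseudogene Eif5al3-ps on chromosome 5 (90280088 to 90280534, + strand) had 17, 24, 36 and 26 reads in control replicates 1 to 4 and 617, 750, 745 and 604 reads in 4A1 KO. It rose 25.1-fold (log2 fold change 4.65 ± 0.15 (SE), adjusted p = 3.3e-06), and the genotypes were well apart. In the deposited TPM the difference was smaller: 15 to 17.3 TPM in control and 84.7 to 106 TPM in 4A1 KO libraries, a log2 fold change of 2.48 ± 0.06 (SE) on the log2(TPM + 1) scale (limma, adjusted p = 0.000164). Its reads were between 0.0204% and 0.0415% of those of Eif5a in control and between 0.731% and 0.92% in 4A1 KO libraries. With them added Eif5a still did not pass, an outcome that so few reads could hardly have changed.

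The coding sequence of Eif5a and the pseudogene differ at 12 of 434 aligned bases, and the longest stretch without a difference, 117 bases, exceeds the 50-base reads. A 60-base window with 6 differences, the most that any window of that length held, is shown to let a reader see what tells their reads apart. It covers bases 256 to 315 of the Eif5a coding sequence counted from the start codon (GENCODE M39, GRCm39), and chr5:90280343-90280402 on the + strand for the pseudogene, with capitals at the 6 differences (C256A, G262A, A274G, G286A, G310A and T315C, the base of Eif5a first).
Eif5a: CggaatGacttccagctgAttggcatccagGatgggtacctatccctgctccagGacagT
Eif5al3-ps: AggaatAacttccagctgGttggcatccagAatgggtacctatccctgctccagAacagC

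Where the reads counted for the pseudogene came from cannot be told from gene totals.

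**Figure D4:**
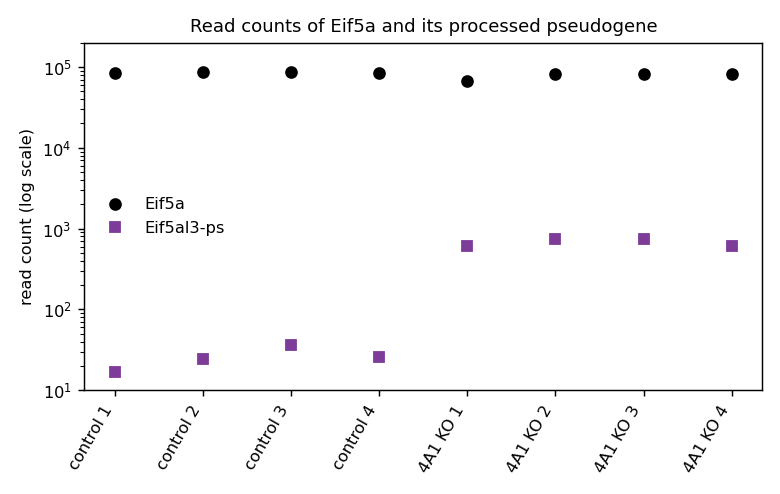
Read counts of Eif5a (circles) and Eif5al3-ps (squares) in the 8 libraries, on a logarithmic axis. Eif5a stayed between 67308 and 86738 reads, while Eif5al3-ps had at most 36 reads in control and at least 604 in 4A1 KO libraries.

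Eif6 (chromosome 2, 155661748 to 155668845, - strand), also needed to make large subunits in the nucleolus, was at 298, 281, 311 and 293 CPM in control and at 431, 385, 421 and 399 CPM in 4A1 KO libraries. Each 4A1 KO library lay above each control. It rose 1.37-fold (log2 fold change 0.45 ± 0.04 (SE), adjusted p = 4.99e-05), with log2 ratios from 0.44 to 0.53 in the same-numbered pairs. Of the pair that removes EIF6 from new large subunits, Sbds rose (0.30 ± 0.05 (SE), adjusted p = 0.00146) and Efl1 fell (-0.22 ± 0.05, adjusted p = 0.00628, and 0.0587 without replicate 3).

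Of 22 partners and regulators of initiation, 11 rose, 5 fell and 6 did not pass, with a median log2 fold change of 0.16. That is 50% that rose and 22.7% that fell, beside 26.3% and 26.7% of all genes tested, for a list chosen with earlier results known. Among the kinases of the EIF2 alpha subunit, Eif2ak2 (PKR, which senses double-stranded RNA) fell, from 20.6, 26.6, 21.5 and 28.9 CPM in control to 12.5, 14.7, 13 and 17.2 CPM in 4A1 KO libraries (-0.77 ± 0.08 (SE), adjusted p = 6.61e-05). Eif2ak4 (GCN2) had 0.15 ± 0.05 with an adjusted p of 0.0365 that was 0.0824, 0.146 and 0.0931 without replicates 2, 3 and 4. Eif2ak1 (HRI) and Eif2ak3 (PERK) did not pass (-0.12 ± 0.05 and 0.16 ± 0.08 (SE), adjusted p = 0.0784 and 0.105), and Eif2ak3 passed without replicate 4 (0.23, adjusted p = 0.0309). The GCN2 activator Gcn1 and its inhibitor Impact rose (0.18 ± 0.05 and 0.36 ± 0.09 (SE), adjusted p = 0.0116 and 0.00913). Impact did not pass without replicate 2 or replicate 3 (adjusted p = 0.0596 and 0.0693).

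Both regulatory subunits of the phosphatase that acts on EIF2 rose. Ppp1r15b, the constitutive one, rose by 0.29 ± 0.06 on the log2 scale (adjusted p = 0.00382). Ppp1r15a (GADD34), the stress-induced one, was at 148, 104, 73.9 and 134 CPM in control and at 213, 137, 151 and 147 CPM in 4A1 KO libraries. These groups overlapped, and its log2 fold change was 0.52 ± 0.14 (SE, adjusted p = 0.0105, and 0.0675 with DESeq2). Without replicate 3 the log2 fold change of Ppp1r15a was 0.27 (adjusted p = 0.0133).

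Bzw1, which resembles EIF5 and competes with it for EIF2, rose (0.33 ± 0.05 (SE), adjusted p = 0.000379), while its relative Bzw2 had -0.11 ± 0.04 (adjusted p = 0.0587). The helicase Dhx29, which helps structured leaders through the small subunit, rose (0.22 ± 0.05 (SE), adjusted p = 0.00466), and the helicase Ddx3x fell (-0.15 ± 0.04, adjusted p = 0.0154, and 0.0822 without replicate 2). Rack1, a protein of the small subunit, rose (0.35 ± 0.04 (SE), adjusted p = 0.000212), and Cdc123, which assembles EIF2, fell (-0.31 ± 0.06, adjusted p = 0.00162). Mcts2, a retrogene copy of Mcts1, rose by 0.91 ± 0.24 at 3.69 CPM or less (adjusted p = 0.0107). Control replicate 2 was lowest, at 0.815 CPM, and without replicate 2 the rise of Mcts2 was 0.59 (adjusted p = 0.0436). Abce1, the ribosome recycling ATPase, had 0.05 ± 0.04 (adjusted p = 0.386).

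The deposited TPM, made from the same reads and so not an independent measure, gave much the same calls. With limma on log2(TPM + 1), 9 of 34 members fell and 10 rose, where 26.6% and 24.1% of 12976 genes did. Calls were the same as in counts for 32 members. Eif3f no longer passed (adjusted p = 0.0562), and Eif3j2 did (0.19, adjusted p = 0.0403).

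Sex separated 1 member clearly. Eif2s3x, on the X chromosome (93232313 to 93256468, - strand), was at 126 and 168 CPM in the control males, 259 and 263 CPM in the control females, 111 and 159 CPM in the 4A1 KO males and 248 and 273 CPM in the 4A1 KO females. Females lay above males in both genotypes, by 0.90 ± 0.08 (SE) on the log2 scale (8 libraries, adjusted p = 0.000769). Eif2s3y, its Y-linked copy in males, is outside the rule. Eif1ax, the other X-linked member, differed by -0.01 ± 0.04 (adjusted p = 0.914). Over all genes tested, 4.79% were higher and 2.1% lower in females. Of the members, Eif3f and Eif3g were lower in females (-0.16 ± 0.04 and -0.17 ± 0.04 (SE), adjusted p = 0.0347 and 0.0249) in the 8 libraries. Without replicate 1, and without replicate 2, 0 members were lower in females.

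**Figure D5:**
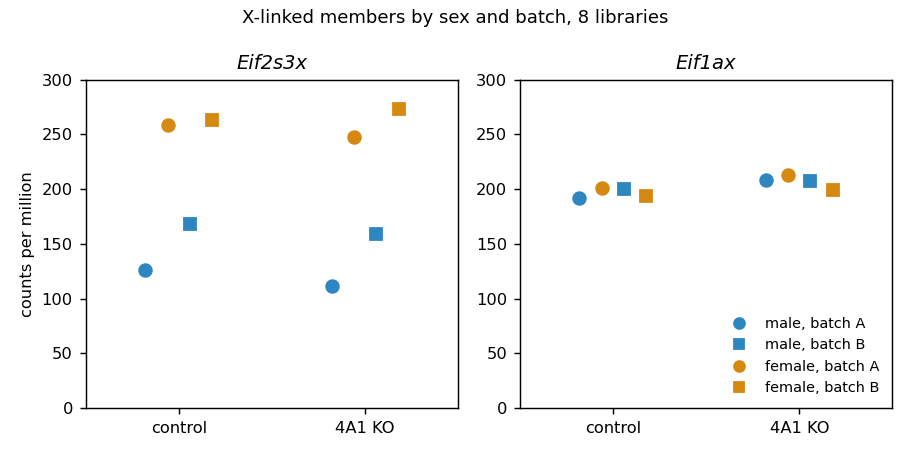
CPM of the X-linked members Eif2s3x and Eif1ax in 8 libraries, by genotype, with males in blue, females in orange, batch A as circles and batch B as squares. Eif2s3x lay at 111 to 168 CPM in males and 248 to 273 CPM in females, and Eif1ax between 192 and 213 CPM in all.

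Batch moved more members than sex. In the 8 libraries, 6 members were higher and 3 lower in batch B, where 15.2% and 13% of all genes were. Eif1a (0.26 ± 0.05 (SE), adjusted p = 0.00445), Eif2s3x (0.27 ± 0.08), Eif3j1 (0.23 ± 0.06), Eif2b3 (0.15 ± 0.05), Eif2s1 (0.13 ± 0.04) and Eif3a (0.12 ± 0.04) were higher in batch B. Eif1 (-0.28 ± 0.06 (SE), adjusted p = 0.00862), Eif3f (-0.15 ± 0.04) and Eif3k (-0.12 ± 0.04) were lower. These values include replicate 1, which the study left out, and none is given without it. Between the females, replicates 2 and 4, Eif2s3x went from 259 to 263 CPM in control and from 248 to 273 CPM in 4A1 KO. In the same order, Eif1 went from 349 to 324 and from 577 to 493 CPM. Eif3j1 went from 133 to 152 and from 169 to 173 CPM, and Eif1a from 167 to 206 and from 196 to 211 CPM. Each batch held both genotypes, and the rise of Eif1 was present within both.

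No difference of the genotype effect between sexes or between batches passed for a member (edgeR interaction terms, 0 of 34 in each; 1 member for sex and 0 for batch had an unadjusted p under 0.05). Over all genes tested, the share that passed was 0% for sex and 0.00704% for batch.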

How the data were processed

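RNA was sequenced from 4 control and 4 4A1 KO B cell cultures (NEBNext Ultra II Directional libraries, paired 50-base reads), 1 mouse each. The authors trimmed reads with Trim Galore 0.6.6, mapped them to GRCm39 with HISAT2 2.1.0 and deposited raw counts per gene made in Seqmonk over merged isoforms on the opposing strand, with Ensembl annotation. The deposited TPM were made by the authors with StringTie 2.1.1. How reads mapping to several places were counted is not given in the sources used here, which bears on Eif5a, Eif1 and Eif3j1.

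Members and gene lists were chosen with earlier results of these data known. Counts were tested in R 4.3.3 with edgeR 4.0.16 (filterByExpr, TMM, quasi-likelihood test with batch, sex and genotype; two-sided, Benjamini-Hochberg over all genes tested). Rose and fell mean an adjusted p under 0.05. In the 6 libraries, batch and sex equal a block on the replicate number. The numbers pair libraries by batch and sex: after subtraction of genotype means, same-numbered libraries correlated over genes at r = 0.599, 0.488, 0.427 and 0.55, other pairs at -0.576 to 0.0716. Where same-numbered pairs lie above 0, this subtraction puts the other pairs below 0 on average, so their low values are not separate evidence of pairing. TPM were tested with limma 3.58.1 on log2(TPM + 1) for genes whose mean TPM was 1 or more. CPM are per total counts and not TMM-scaled (factors 0.992 to 1.01). Named genes were all members, Eif4a1, Eif5al3-ps and the partners; pseudogenes of Eif1 and Eif3e, tests of batch, 8 libraries without a block and paired tests of the ratios were added after the data were seen. Alignments used blastn 2.17.0 on GENCODE M39 transcripts. The scripts were tested on simulated data. Alternatives were other normalizations, filters, DESeq2 1.42.0, no block, 8 libraries, pseudocount 0.1 and each replicate left out. SD is between the libraries of a genotype. SE is that of the fit with batch and sex in it, in edgeR taken from the log2 fold change and the F statistic. No interval for a single library was computed.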

Additional observations from a re-analysis of the deposited data

Results flagged for a closer look

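In the 4 libraries of a genotype, 3 values stood apart from the other 3 by Dixon's ratio of gap to range, of 116 groups of 4 examined, where chance alone flags about 1 in 20. Eif2b1 in 4A1 KO had a ratio of 0.876, with replicate 4 at 80.5 CPM and the nearest library at 67.8 CPM. Eif3j2 in control had 0.875, with replicate 1, which is not in the main comparison, at 4.76 CPM and the nearest at 7.06 CPM. Eif1b in control had 0.836, with replicate 3 at 40.8 CPM and the nearest at 36.5 CPM.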

How the results depend on the processing

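Under the 12 other settings of the genotype test, 382 values of the 34 members kept direction and side of the threshold, 18 no longer passed, 3 newly passed (Eif1ad and Eif3i with 8 libraries, Eif3c with upper-quartile scaling) and 5 reversed. Of the 19 members that rose or fell, Eif2b3, Eif3a, Eif3f, Eif3j1 and Eif3k were lost in at least 1 setting. The reversals were near 0: Eif5a and Eif3d had 0.00 and 0.02 with upper-quartile scaling, which moved the median gene by 0.023, and Eif5a ranged from -0.03 to 0.01, Eif3d from -0.04 to 0.04 and Eif2s3x from -0.07 to 0.00 over the fits that left out a replicate.

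Without the replicate block, EIF3 had 3 subunits that fell and 1 that rose (the same numbers with all 8 libraries and no block), 3 partners fell and 7 rose with 0 above 0.5 (the same with 8 libraries), 2445 of all genes rose, and 6 members rose in TPM, as also happened with no filter on low TPM. Members that fell and rose in counts were then 8 and 6. Above 0.5, 1 partner passed with DESeq2 with or without shrinkage and with all 8 libraries, and 1088 of all genes with DESeq2 with shrinkage. The block on the replicate number is part of the reported fit.

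Leaving out 1 replicate gave 0 to 2 members below -0.5, 3 to 5 partners that fell, 1 to 2 partners above 0.5, 3 to 4 EIF3 subunits that fell, 1 to 3 that rose, 5 to 10 members that rose in TPM and 0 to 1 members lower in females. The log2 ratio of Eif1ax to Eif1a differed by -0.05 to 0.01, that of Eif3j2 to Eif3j1 by -0.03 to 0.01 (0.01 also from CPM), and Eif1ax differed between sexes by -0.07 to 0.06. The cause of these changes was not tested. A pair left out leaves fewer samples. Eif3j2 and the pseudogenes had few reads, and the division of reads between near-identical copies limits their values.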
